A study of Homo sapiens with 3 samples.

Results

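The microtubule genes described here were 10 alpha and beta tubulin isotypes, TUBB3, TUBB, TUBB2A, TUBB2B, TUBB4B, TUBB6, TUBA1A, TUBA1B, TUBA1C and TUBA4A. They were taken as every probe set on the array whose only annotated gene symbol was 1 of these 10, which gave 21 of 49388 probe sets and 8 of 18131 genes. TUBB2B and TUBA1B had no probe set of their own and were not analysed here. Of the 21 probe sets, 19 were above the intensity floor of 26.0 on at least 1 array, and all 8 isotypes with a probe set were measured in this way, as were 11286 genes in all. The set was chosen by the TUBB3 intensities, which were higher with siRNA 2, so the TUBB3 values below describe what selected it and support nothing.

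The study asked which genes depend on HOXD-AS1, a long non-coding RNA from the HOXD gene cluster, in LNCaP, a long-established human line from a prostate cancer metastasis. LNCaP cells received HOXD-AS1 siRNA 2, HOXD-AS1 siRNA 1 or a negative control siRNA, each at 75 nM with a lipid carrier, while the medium held serum but no phenol red. RNA was taken after 48 h and hybridised to an Affymetrix array. Each group held 1 array, so nothing reported here has a replicate check, no difference was tested, and precision is limited by having 3 arrays. The source labels named the cells LNCaP-AI for siRNA 2, LNCaP-Bic for siRNA 1 and LNCaP for the control, while the cell line label was LNCaP for all 3, so cells and siRNA cannot be told apart if these names mark different sublines. The siRNA sequences, shown because the isotypes separated the siRNAs from each other, are printed as the labels give them, with the last 2 bases in capitals. The labels do not say which strand they are. A further label gives target positions 1290 for siRNA 2 and 588 for siRNA 1 on the coding sequence of WDR5, a different gene, although the siRNAs are named for HOXD-AS1, so the target is in doubt and the siRNAs are called here by their names.
HOXD-AS1 siRNA 2: gcccuuucugaccugcuuaUU
HOXD-AS1 siRNA 1: gaaagaaggaccaaaguaaUU
Control siRNA: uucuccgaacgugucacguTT

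Microtubules are polymers of paired alpha and beta tubulin, and several genes encode near-identical forms of each, called isotypes. TUBB3, the class III beta-tubulin, is typical of neurons and is also found in some carcinomas, where it has been studied in connection with taxane treatment. TUBA1A is the main alpha-tubulin gene of the developing brain, while TUBB, TUBB4B, TUBA1B and TUBA1C are expressed in most dividing cells. The coding sequences of isotypes are so alike that probes can read several of them. On this array type, names ending in _s_at mark probe sets whose probes match several transcripts and names ending in _x_at mark probe sets with some probes that may cross-hybridise. Of the 21 isotype probe sets 12 were _x_at, 6 were _s_at and 3 were plain _at.

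Promoter sequence is shown for TUBB3 and TUBA1A, the isotypes that differed most from the control, and for TUBB4B, which differed little with siRNA 2. Each stretch holds the 250 bases before an annotated start, from RefSeq on GRCh38.p14, written 5′ to 3′ on the strand of the gene. TUBB3 has 2 starts in this table. Capitals mark matches on either strand to TATAA (TATA box core), CCAAT (bound by NF-Y), GGGCGG (GC box) and TTTGAA (core of the cell cycle homology region). The motifs marked did not overlap one another in these stretches.
TUBB3, first start, chr16:89921675-89921924, plus strand: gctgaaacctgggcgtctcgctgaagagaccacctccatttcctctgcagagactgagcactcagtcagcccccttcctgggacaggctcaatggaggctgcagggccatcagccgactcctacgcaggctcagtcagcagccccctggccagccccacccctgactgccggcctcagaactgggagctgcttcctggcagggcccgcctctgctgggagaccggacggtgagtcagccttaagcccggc
TUBB3, second start, chr16:89923092-89923341, plus strand: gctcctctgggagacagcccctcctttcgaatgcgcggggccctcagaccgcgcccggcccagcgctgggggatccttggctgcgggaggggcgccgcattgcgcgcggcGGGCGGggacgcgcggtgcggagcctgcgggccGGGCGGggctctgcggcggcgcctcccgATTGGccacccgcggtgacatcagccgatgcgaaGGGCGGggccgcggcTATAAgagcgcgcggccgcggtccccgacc
TUBA1A, chr12:49189081-49189330, minus strand: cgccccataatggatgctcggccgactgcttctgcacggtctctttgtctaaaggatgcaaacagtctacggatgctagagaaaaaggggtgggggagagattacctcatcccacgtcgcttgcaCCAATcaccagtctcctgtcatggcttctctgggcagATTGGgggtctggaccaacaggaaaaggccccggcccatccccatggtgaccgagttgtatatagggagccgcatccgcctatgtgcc
TUBB4B, chr9:137241037-137241286, plus strand: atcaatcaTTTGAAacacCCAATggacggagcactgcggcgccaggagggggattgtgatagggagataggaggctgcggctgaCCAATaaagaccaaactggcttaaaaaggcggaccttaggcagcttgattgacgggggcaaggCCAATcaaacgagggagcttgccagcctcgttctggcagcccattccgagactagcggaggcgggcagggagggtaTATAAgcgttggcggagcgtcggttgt

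The second TUBB3 stretch held 39 CpG dinucleotides, 3 GC boxes, 1 CCAAT box and a TATAA, whereas the first held 9 CpG and none of these motifs. The TUBA1A stretch held 11 CpG and 2 CCAAT boxes, and the TUBB4B stretch 15 CpG, 3 CCAAT boxes, 1 TATAA and 1 TTTGAA. Over the 15 such stretches of the 10 isotypes, CCAAT was present in 9, GGGCGG in 9, TATAA in 5 and TTTGAA in 3. The same letters were present in 32.0%, 42.6%, 18.9% and 13.3% of all 35116 stretches of this length, in the same order. Stretches of 1 gene can overlap, and a match is only a match of letters.

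TUBB3 was higher with siRNA 2 alone. Its only probe set, of the _x_at kind, read 1733.3 with siRNA 2, 242.2 with siRNA 1 and 304.3 in the control. The siRNA 2 array was high, and the siRNA 1 array was slightly below the control. On the log2 scale the differences were 2.51 for siRNA 2 minus control (5.70-fold higher) and -0.33 for siRNA 1 minus control (1.26-fold lower). Set against each other, siRNA 2 was 7.16-fold above siRNA 1 (2.84 on the log2 scale). Of all 11286 measured genes, TUBB3 ranked 2 from the top in siRNA 2 minus control and 1 in siRNA 2 minus siRNA 1. No second TUBB3 probe set was available to compare with it. In a bulk sample, more cells with the transcript and more transcript per cell cannot be told apart.

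The TUBB3 difference was not shared by the other beta isotypes. TUBB, the beta-tubulin gene used in most dividing cells, had 6 probe sets, and the probe set with the highest mean signal read 2827.8 with siRNA 2, 2126.0 with siRNA 1 and 3292.2 in the control. Both siRNA arrays lay below the control, siRNA 1 further than siRNA 2. The log2 differences of the 6 TUBB probe sets ran from -0.45 to 0.05 with siRNA 2 and from -0.82 to -0.26 with siRNA 1. Every TUBB probe set was therefore lower with siRNA 1, down to 0.57 of the control level, and 5 of the 6 were lower with siRNA 2. The exception with siRNA 2 was the 1 _s_at probe set of the gene (0.05), and all 5 _x_at probe sets were below 0.

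TUBB4B, another widely expressed beta-tubulin, read 6939.0 with siRNA 2, 4616.9 with siRNA 1 and 6402.2 in the control. Only the siRNA 1 array was low. The differences of this probe set were 0.12 (siRNA 2) and -0.47 (siRNA 1), and its second measured probe set, an _x_at set, gave 0.08 and -0.52. The plain _at probe set of TUBB4B was under the floor on all arrays. TUBB2A, a beta isotype prominent in neurons, was nearly level, at 576.1 with siRNA 2, 520.0 with siRNA 1 and 540.3 in the control. Its differences over 2 probe sets were 0.09 with siRNA 2 and -0.06 to -0.03 with siRNA 1.

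TUBB6, the class V beta-tubulin, was the other beta isotype above the control with siRNA 2 in each measured probe set by more than 0.2 on the log2 scale. It read 974.9 with siRNA 2, 942.9 with siRNA 1 and 738.3 in the control, so both siRNA arrays were above the control and close to each other. Its differences over 2 measured _s_at probe sets were 0.29 to 0.40 for siRNA 2 and 0.19 to 0.35 for siRNA 1. The plain _at probe set of TUBB6 was under the floor. These values are small against the spread of all genes, since 95% of the 11286 measured genes lay between -0.71 and 0.72 with siRNA 2 and between -0.88 and 0.84 with siRNA 1.

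Among the alpha isotypes, TUBA1A was higher with both siRNAs, and more so with siRNA 1. Its representative probe set read 457.8 with siRNA 2, 906.9 with siRNA 1 and 174.1 in the control. The other probe set annotated to TUBA1A alone read 454.6 with siRNA 2, 845.9 with siRNA 1 and 185.4 in the control. The 3 arrays thus fell in the same order in both probe sets, with the control lowest and siRNA 1 highest. The log2 differences were 1.39 and 1.29 for siRNA 2 minus control (2.63-fold and 2.45-fold higher) and 2.38 and 2.19 for siRNA 1 minus control (5.21-fold and 4.56-fold higher). Between the siRNAs, the order was opposite to that of TUBB3, with siRNA 2 1.98-fold and 1.86-fold below siRNA 1, just short of a 2-fold difference. TUBA1A ranked 34 from the top of all measured genes with siRNA 2 and 4 with siRNA 1.

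The remaining alpha isotypes stayed within 1.5-fold of the control. TUBA1C, expressed in most dividing cells, read 2952.4 with siRNA 2, 2477.0 with siRNA 1 and 2442.4 in the control, and its differences over 2 probe sets were 0.21 to 0.27 with siRNA 2 and -0.21 to 0.02 with siRNA 1. TUBA4A, an alpha isotype abundant in platelets and muscle, read 1900.5 with siRNA 2, 1591.3 with siRNA 1 and 2050.1 in the control. Its _x_at probe set and its plain _at probe set gave nearly equal differences, -0.11 and -0.13 with siRNA 2 and -0.37 and -0.40 with siRNA 1. TUBA4A was the 1 isotype whose values did not rest on shared or cross-hybridising probe sets alone. Both TUBA1A probe sets are of the _x_at kind, and what other isotypes add to them was not tested. A further 2 probe sets, also of the _x_at kind, were annotated to both TUBA1A and TUBA1B and were not assigned to a gene here. They read 7921.5 and 8489.8 with siRNA 2, 6583.9 and 6512.5 with siRNA 1 and 7921.5 and 9172.6 in the control, differences of 0.00 and -0.11 (siRNA 2) and -0.27 and -0.49 (siRNA 1). These 2 shared probe sets were thus not higher with either siRNA, unlike the 2 annotated to TUBA1A alone. They were far brighter, and what each gene adds to them was not tested. Another probe set, annotated to a beta isotype and an unrelated gene, read 32.4 with siRNA 2, 34.1 with siRNA 1 and 34.2 in the control.

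**Figure D1:**
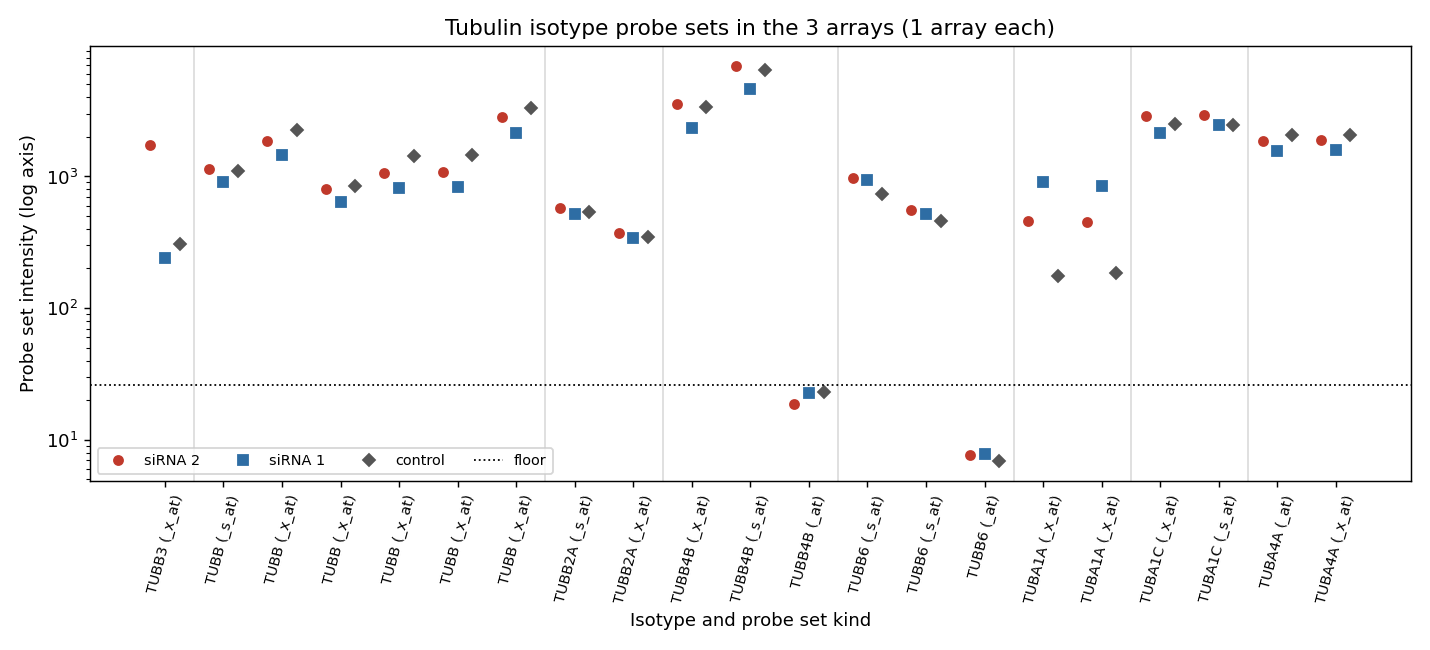
Intensity (log axis) of each isotype probe set, labelled by gene and probe set kind, in the siRNA 2 (circle), siRNA 1 (square) and control (diamond) arrays, 1 array each, with the floor of 26.0 as a dotted line. TUBB3 stands high with siRNA 2 alone (1733.3 against 304.3 in the control), both TUBA1A probe sets stand high with both siRNAs, and the other probe sets above the floor lie close together across arrays.

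Counting each gene by its brightest probe set on average, 2 of 8 measured isotypes, TUBB3 and TUBA1A, were at least 2-fold higher with siRNA 2, where 0.789% of all measured genes were. TUBB3 helped to choose the set, so this count is a description. With siRNA 1, 1 of 8, TUBA1A, was at least 2-fold higher, against 1.36% of all genes. No isotype was 2-fold lower, 0 of 8 with each siRNA, where 0.603% of all genes were with siRNA 2 and 1.76% with siRNA 1. TUBB3 was also the 1 isotype of 8 that was at least 2-fold higher in siRNA 2 than in siRNA 1, where 0.656% of genes were, and 0 of 8 were 2-fold lower, against 1.56% of genes. TUBA1A was among the 36 genes, 0.319% of those measured, that were at least 2-fold above the control with both siRNAs. The siRNA comparisons share the control array.

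Without TUBB3, the median log2 difference of the 7 other measured isotypes was 0.12 with siRNA 2 and -0.06 with siRNA 1, beside 0.01 and 0.00 over all measured genes. Set directly against siRNA 1, siRNA 2 gave a median of 0.25 over these 7 isotypes, beside 0.02 over all genes. Of the 18 measured probe sets of these 7 isotypes, 16 (88.9%) were higher with siRNA 2 than with siRNA 1, where 49.3% of all 23896 measured probe sets with 1 symbol were, and the other 2 were those of TUBA1A. These probe sets are not independent, since several read the same gene or can read several isotypes. The tilt was not particular to the isotypes, as some gene lists given below had it. Against siRNA 1, siRNA 2 was also higher for 20 of 20 mitosis genes and 4 of 5 further alpha and beta tubulins. It was higher for 9 of 11 genes of gamma, delta and epsilon tubulin and the ring complex, but for 7 of 13 folding genes. For scale, probe sets of the same gene varied around their gene's mean difference with an SD of 0.20 with siRNA 2 and 0.22 with siRNA 1, over 6263 genes with more than 1 measured probe set. That SD describes probe sets on the same arrays and not samples.

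**Figure D2:**
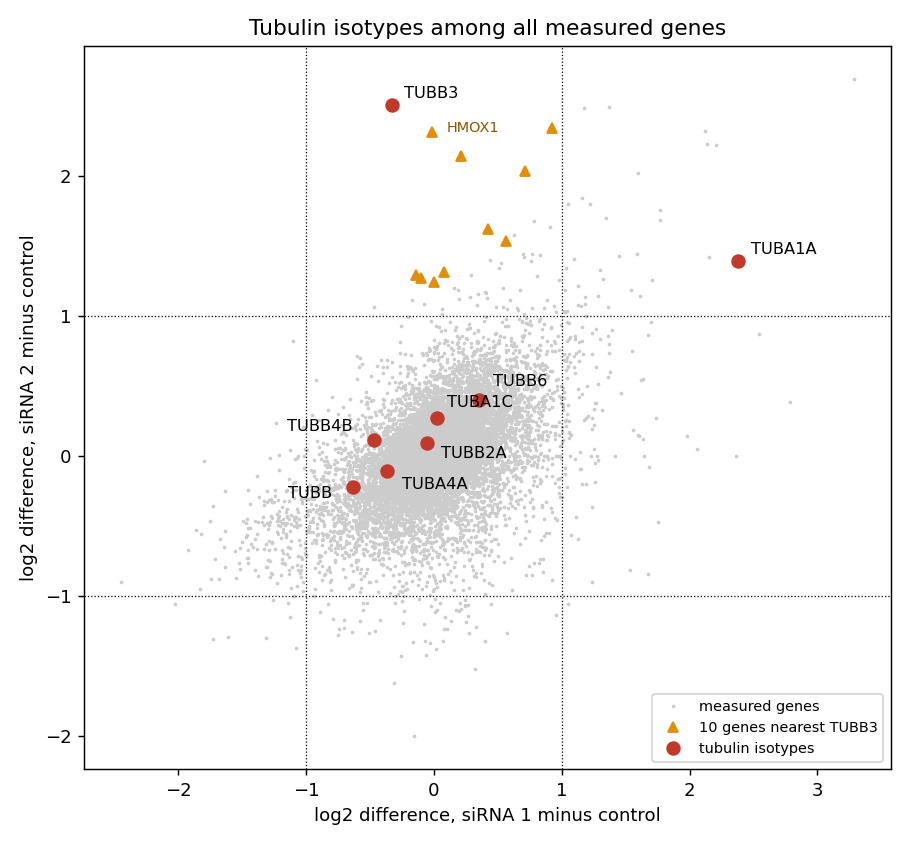
Log2 difference of siRNA 1 from the control (x axis) and of siRNA 2 from the control (y axis) for the 11286 measured genes (grey), the 8 measured tubulin isotypes (red circles, named) and the 10 genes nearest TUBB3 (orange triangles), with dotted lines at 2-fold. TUBB3 (-0.33 and 2.51) and TUBA1A (2.38 and 1.39) lie outside the cloud in different directions, and the 6 other isotypes lie inside it.

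The lower level of TUBB, TUBB4B and TUBA4A with siRNA 1 was accompanied by lower levels of mitosis genes. The differences of these isotypes were small, lying between -0.88 and 0.84, as 95% of measured genes did with siRNA 1. All 20 listed mitosis genes were below the control with each siRNA. Their median log2 difference was -0.57 (siRNA 2) and -1.28 (siRNA 1), beside 0.01 and 0.00 over all measured genes. Past 2-fold, 2 of 20 were lower with siRNA 2 and 19 of 20 with siRNA 1, against 0.603% and 1.76% of all measured genes. The list was chosen with earlier results of these data known, so these counts are a description. CDC20, which switches on the ubiquitin ligase of anaphase, gave log2 differences of -1.06 and -2.03 in the same order (-0.48 and -1.14 in its other measured probe set). The mitotic kinesin genes KIF14 (-1.31 and -1.73) and KIF20A (-0.88 and -1.74) were the other named examples. The part of these genes in the isotype values was not tested. TUBA1A was higher in both arrays in which these genes were lower, and TUBB3 in the siRNA 2 array alone.

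No gene for another tubulin or for tubulin assembly was 2-fold higher with either siRNA. Of 5 measured further alpha and beta tubulin genes, 0 were 2-fold higher with either siRNA and 1 was 2-fold lower with siRNA 1. This was TUBA3D, an alpha-tubulin gene known from testis, whose _x_at probe set read 215.7 with siRNA 2, 161.9 with siRNA 1 and 355.1 in the control (-0.72 and -1.13). TUBA3E, picked out once its values were known, had the same order, at 99.5, 70.3 and 137.7 (-0.47 and -0.97). Gamma-tubulin nucleates microtubules as part of a ring complex. The 11 measured genes of gamma, delta and epsilon tubulin and of that complex had medians of -0.10 with siRNA 2 and -0.29 with siRNA 1, and 0 passed 2-fold in either direction. The same was true of the 13 folding genes (tubulin cofactors and prefoldin), with medians of -0.02 and -0.18.

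Tubulin mRNA is known to be degraded when free tubulin is abundant, through TTC5, which binds the emerging tubulin chain, with SCAPER and CNOT11 as partners. The log2 differences of TTC5 were -0.17 (siRNA 2) and -0.38 (siRNA 1), those of SCAPER 0.07 and 0.04, and those of CNOT11 -0.86 and -0.54. None of these 3 genes passed 2-fold. The 17 measured tubulin modifying enzymes, which add or remove tyrosine, glutamate or acetyl groups, ran from -0.60 to 0.51 with siRNA 2 and from -0.74 to 0.38 with siRNA 1, and 0 passed 2-fold. The 7 measured destabilising and severing genes had medians of -0.16 and -0.20, also with 0 past 2-fold.

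Among 17 measured genes of microtubule-associated and plus-end proteins, 1 was 2-fold higher with siRNA 2 and 0 with siRNA 1. This was MAP1B, a microtubule-stabilising protein of growing axons. Its representative probe set read 1707.5 with siRNA 2, 970.2 with siRNA 1 and 763.6 in the control, so both siRNA arrays were above the control and siRNA 2 was highest. All 5 MAP1B probe sets were higher with both siRNAs, at 0.93 to 1.21 for siRNA 2 minus control and 0.17 to 0.46 for siRNA 1 minus control. MAPT, which encodes the axonal protein tau and was picked out once its values were known, had differences of 0.49 (siRNA 2) and -0.05 (siRNA 1). Other neuronal genes of the list did not share this. MAP2 differed by 0.00 and 0.10 and MAP1A by -0.02 and -0.22, both near the floor. MAP6, DCX and DCLK1 were under the floor on all arrays. The median of the 17 genes was 0.04 with siRNA 2 and 0.10 with siRNA 1.

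**Figure D3:**
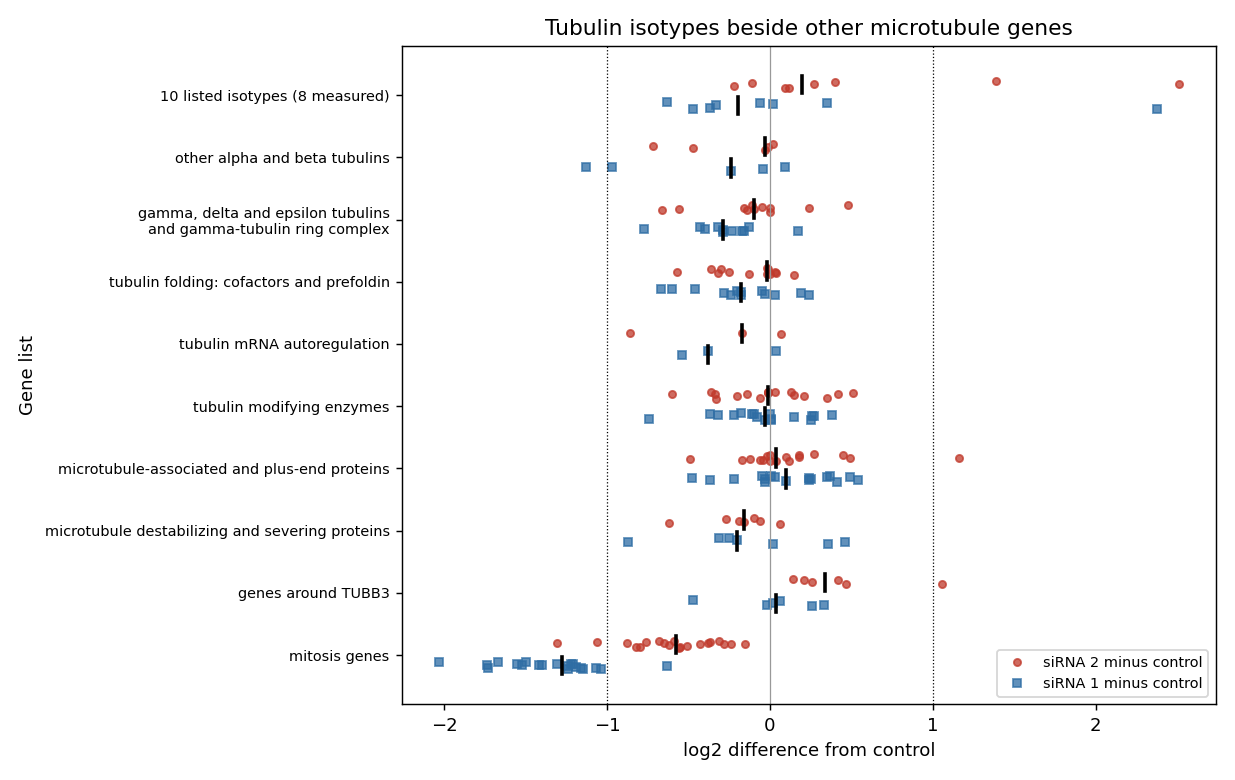
Log2 differences from the control for siRNA 2 (circles) and siRNA 1 (squares) for the measured genes of each list, 1 point per gene, with a black bar at the median and dotted lines at 2-fold. TUBB3 and TUBA1A lie furthest to the right, MAP1B and DBNDD1 pass 2-fold with siRNA 2, and the mitosis genes lie to the left, further with siRNA 1 (median -1.28) than with siRNA 2 (median -0.57).

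The TUBB3 pattern was also set beside that of its chromosomal neighbours on chromosome 16. The fixed list of genes around TUBB3 held 6 genes measured under the symbols listed, with medians of 0.34 with siRNA 2 and 0.04 with siRNA 1. DRC4, a measured neighbour that was not listed under this symbol and is not in these medians, differed by 0.16 and -0.25. DBNDD1, a dysbindin-domain gene, was the only 1 of the 6 past 2-fold. Its representative probe set read 751.2 with siRNA 2, 260.0 with siRNA 1 and 359.1 in the control, the same order of arrays as TUBB3. Its log2 differences were 1.06 for siRNA 2 and -0.47 for siRNA 1, and its 3 other measured probe sets gave 0.31 to 0.75 and -0.42 to -0.18. The measured genes next to TUBB3 or between it and DBNDD1 differed less. MC1R, the melanocortin receptor gene next to TUBB3, differed by 0.26 and 0.06, DEF8 by 0.21 and -0.02 and CENPBD1P by 0.47 and 0.33. All 9 nearest measured neighbours of TUBB3, 5 on one side and 4 on the other, were above the control with siRNA 2, by 0.14 to 1.06. With siRNA 1 they ran from -0.47 to 0.33. Their medians were 0.27 with siRNA 2 and 0.02 with siRNA 1. The medians over all measured genes were 0.01 with siRNA 2 and 0.00 with siRNA 1. All these neighbours but DBNDD1 lay between -0.71 and 0.72 with siRNA 2, as 95% of measured genes did. SPATA2L, SPIRE2 and MC1R were among the dim ones, with intensities between 48.7 and 71.7 over the arrays.

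TUBA1A lies on chromosome 12 beside TUBA1B and TUBA1C. Its 9 nearest measured neighbours other than tubulin genes included 0 that were 2-fold higher with either siRNA. Their medians were 0.00 with siRNA 2 and -0.19 with siRNA 1. TROAP, a spindle protein gene, was 2-fold lower with both (-1.30 and -1.61), and TUBA1C, the next measured gene, differed by 0.27 and 0.02. PRPH, which encodes the neuronal filament protein peripherin and was picked out once its values were known, read 56.7 with siRNA 2, 83.8 with siRNA 1 and 49.4 in the control.

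**Figure D4:**
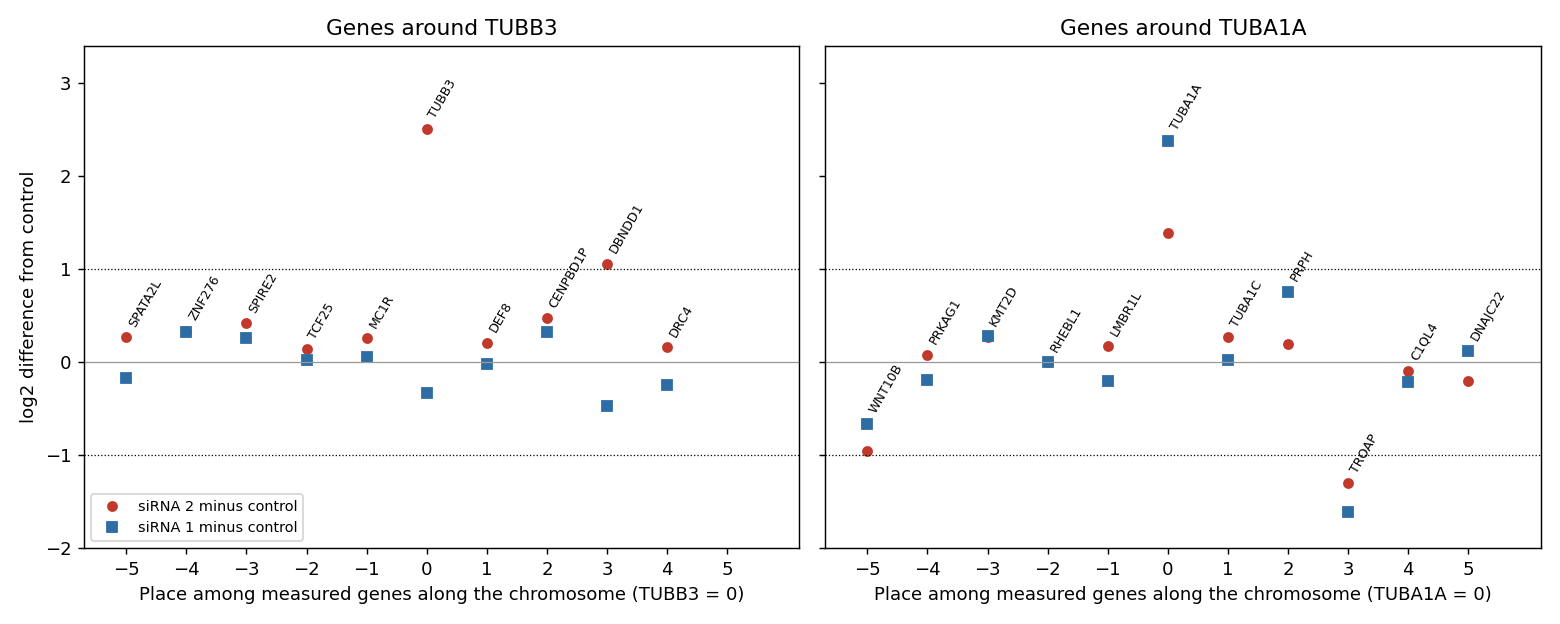
Log2 differences from the control for siRNA 2 (circles) and siRNA 1 (squares) for TUBB3 (left panel) and TUBA1A (right panel) and up to 5 measured genes on each side, in chromosome order. DBNDD1 (1.06 and -0.47) is the neighbour of TUBB3 that passes the dotted 2-fold line upward, and no neighbour of TUBA1A does.

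The gene nearest TUBB3 in its pair of log2 differences over the 3 arrays was HMOX1, heme oxygenase, an enzyme induced by oxidative and heme stress. HMOX1 read 1182.0 with siRNA 2, 234.3 with siRNA 1 and 236.5 in the control, differences of 2.32 and -0.01, at a distance of 0.37 from TUBB3. Its 2 other probe sets gave 2.09 to 2.23 with siRNA 2 and -0.23 to -0.09 with siRNA 1. RLN1, which encodes a relaxin hormone made in prostate, came next at a distance of 0.65, with 207.0, 54.0 and 46.7 in the same order of arrays. The phospholipase gene PLA2G2A (2.04 and 0.71), SMIM5 (1.63 and 0.43), the decarboxylase gene DDC (1.29 and -0.14) and the nesprin gene SYNE2 (1.28 and -0.10) followed. APOBEC3H, HAS3, ACTL8 and CLEC7A completed the 10, at distances of 1.26 to 1.32. SYNE2 gave 1.39 to 1.45 with siRNA 2 in its 2 other probe sets, whereas APOBEC3H gave 0.76 to 1.07. The other probe sets of PLA2G2A gave 1.51 to 2.13 with siRNA 2, and those of CLEC7A 1.45 to 2.90. For SMIM5 the other probe set gave 0.72 with siRNA 2 and 0.00 with siRNA 1, and the representative one read 25.6 in the control, under the floor. Over 3 arrays such likeness rests on 2 differences per gene.

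For TUBA1A, where the same search was added after its values were seen, the nearest gene was CAMK2N1, an inhibitor of the kinase CaMKII, at a distance of 0.23. CAMK2N1 read 1870.3 with siRNA 2, 3089.7 with siRNA 1 and 695.4 in the control (1.43 and 2.15), and its other probe set gave 1.04 and 1.54. The zinc finger gene MYNN followed at 0.54 and SYTL2, a vesicle transport gene, at 0.68. The 10 genes nearest TUBB3 and the 10 nearest TUBA1A had 0 in common. TUBB3 and TUBA1A lie too far apart in these differences for the lists to share a gene, so this count adds nothing.

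The arrays were alike in overall signal, with a median intensity of 25.7 to 26.1 and 49.9% to 50.1% of probe sets above the floor. Defining luminal prostate genes were present in all of them, and 8 of 9 listed luminal genes were measured, with FOLH1 not analysed here. The summed luminal intensity was 12355 with siRNA 2, 14926 with siRNA 1 and 14111 in the control, and 9125, 10081 and 8935 without the kallikrein gene KLK2, left out after the data were seen. The median luminal difference was 0.05 with siRNA 2, with 5 of 8 genes above 0. Neuronal and neuroendocrine markers, listed because TUBB3 and TUBA1A are neuronal genes, were mostly dim. Of 14 such genes 6 were measured and 0 passed 2-fold. The list summed to 528 with siRNA 2, 630 with siRNA 1 and 641 in the control, and without the neurofilament gene NEFL (190.3, 333.2 and 324.7), again left out after the data were seen, it summed to 338, 297 and 317. The median neuronal difference was 0.06 with siRNA 2, with 4 of 6 genes above 0. CHGA, CHGB, NCAM1, INSM1, ELAVL4 and DCX were among the genes under the floor on all arrays. Stromal markers summed to 290, 196 and 141 with 3 of 8 measured, and the smooth muscle actin gene ACTA2 accounted for 150.0, 92.9 and 41.7 of these. ACTA2 was the 1 measured stromal marker at least 2-fold higher with each siRNA (1.85 and 1.16), and the collagen gene COL3A1 differed by 0.96 and 0.13. COL1A2, DCN, LUM, PDGFRB and THY1 were under the floor on all arrays, and the part of the stromal markers in the isotype values was not tested. Markers of basal cells and other prostate lines summed to 969, 882 and 947 with 4 of 10 measured, and leukocyte markers to 118, 97 and 94 with 1 of 6 measured. HOXD-AS1 itself had no annotated probe set and was not analysed here. An inhibition rate label gives 0.25 for siRNA 2, 0.23 for siRNA 1 and 1 for the control, which could not be checked on these arrays.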

How the data were processed

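Total RNA of 3 LNCaP cultures was amplified to biotin-labelled cRNA and hybridised to 1 Affymetrix array each. The authors deposited linear probe set intensities, with a column for each array. The submitters' processing notes name GCOS 1.4, while the background, summary and normalization methods are not given in the sources used here. Ranked log2 intensities matched between arrays within 0.10, and 6.5% to 7.9% of values recurred exactly in another array. A shift common to most transcripts would be lost if the arrays had been forced to share 1 distribution.

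Intensities under 26.0, the median of all values, were raised to it before log2, and a gene counted as measured with at least 1 array above it. The brightest probe set by mean log2 intensity, among those with 1 symbol, represented its gene. Symbols came from the platform annotation (44988 probe sets with 1 symbol, 1831 with several, 2569 unnamed), and 44961 matched RefSeq by Entrez identifier with 0 symbols changed. With 1 array per group no test was possible, so log2 differences and counts at 2-fold are given beside those of all measured genes. Named genes were the isotypes, at most 3 genes per list past 2-fold, and the 10 genes nearest TUBB3 by Euclidean distance. Neighbours followed RefSeq gene order. The isotypes, lists and thresholds were chosen with earlier results of these data known. The counting was tested on simulated data with little noise and with changes set past 2-fold in bright genes. This checks the calculation alone and says nothing about arrays without replicates or cross-hybridising probe sets. Alternatives were other floors, quantile normalization, other probe set choices and other thresholds. Python 3.11.15, numpy 2.4.6 and pandas 2.3.3 were used. Some listed marker genes are not reported here.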

Additional observations from a re-analysis of the deposited data

Results flagged for a closer look

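TUBB3 differed between the siRNAs, at 2.51 on the log2 scale for siRNA 2 minus control and -0.33 for siRNA 1 minus control. By representative probe sets, it was the only measured isotype more than 0.2 above the control with one siRNA and more than 0.2 below it with the other. The second probe set of TUBA1C, at 0.21 and -0.21, also did so. With 1 array per siRNA the difference between them was not tested. The TUBB3 values chose the set, so this is a description. The -0.33 rests on 1 _x_at probe set and lies between -0.88 and 0.84, as 95% of measured genes did with siRNA 1.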

How the results depend on the processing

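Over the alternatives, 81 of 89 recomputed values kept their direction and stayed within the spread between probe sets of a gene or within 1.5 times a count, and none turned direction among values past 2-fold. The TUBB3 and TUBA1A differences were among these under each floor tried, quantile normalization and averaged probe sets. Averaging could not change TUBB3, which has 1 probe set. The floors could not move TUBB3 or TUBA1A, whose intensities all lay above them, and the arrays were already alike in distribution. Both isotypes have _x_at probe sets alone, so no value could be had for them from plain probe sets or, in an alternative added after seeing the data, without _x_at probe sets. The count of 2-fold higher isotypes was then 0 with siRNA 2 and 0 with siRNA 1, of 1 and 6 isotypes left. Plain probe sets left TUBA4A alone, so that the median of the other isotypes was -0.13 with siRNA 2 and -0.40 with siRNA 1. At 3-fold, 1 isotype was higher with siRNA 2. At 1.5-fold, 1 isotype, TUBB, was lower with siRNA 1. No paired analysis was possible because each group held 1 array. Arrays without replicates set the limit on precision.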
